A study of Mus musculus with 8 samples.

Results

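The 10 genes described here are Mdm2, Ccng1, Phlda3, Trp53inp1, Sesn1, Zmat3, Aen, Perp, Plk2 and Bbc3, textbook transcriptional targets of the tumour suppressor p53. They were taken by symbol from a table of 17847 genes, and all 10 were present and were measured above the floor of the table in every library. Cdkn1a, the best known target, and the BCL2 family were left to the wider lists, except that Bbc3 is itself a BCL2 family member. RNA came from muscle stem cells, which carry Pax7 and rebuild muscle fibres after injury. They were sorted from C57Bl/6 mice on CD34, with CD31, CD45, Sca1 and DAPI used to discard other cells. There were 4 wild-type and 4 Cox10-/- libraries, numbered as replicates 1 to 4 in each genotype. Per the labels, Cox10-/- animals carried a floxed Cox10 allele with a tamoxifen-dependent Cre driven by Pax7. All samples carry the same protocol of 1 tamoxifen dose of 200 mg/kg by intraperitoneal injection, and cells were purified 2 days after tamoxifen, from adults. Whether the wild-type animals carried Cre or a floxed allele is not stated. No label says that each library came from its own animal, so p-values measure the spread between these samples, which may be technical.

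In unstressed cells p53 is kept low because the ubiquitin ligase Mdm2 marks it for destruction. DNA damage, shortage of nucleotides, failing ribosome production and metabolic stress free it from this control, and it then switches on genes that halt the cell cycle, slow growth signalling, start repair or trigger apoptosis. Because Mdm2 is also a target, its transcript is a common readout of p53 activity. Several targets answer to other factors too: Sesn1 and Trp53inp1 can also be driven by FoxO proteins, Perp by p63, and Plk2 by growth factor signals. These are examples, and the part of such factors in the results below was not tested. In muscle stem cells p53 is known for holding cells in quiescence and for protecting them as they become activated.

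RefSeq promoters (build GRCm38.p6, from 250 bases before to 50 after a transcript start) matched 7 of the 10 genes, with 11 starts in all. Perp, Zmat3 and Trp53inp1 had no entry. Each was searched for a pair of p53 consensus half-sites of 10 bases, named here by that name alone, 0 to 13 bases apart and with the C and G of each core intact. The consensus is its own reverse complement, so 1 pass covers both strands. The 4 closest matches are shown as the 250 bases upstream of the start, because they let the sequence be set beside how each gene behaved. Capitals mark the half-sites.

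Ccng1, chr11:40755287-40755536, minus strand: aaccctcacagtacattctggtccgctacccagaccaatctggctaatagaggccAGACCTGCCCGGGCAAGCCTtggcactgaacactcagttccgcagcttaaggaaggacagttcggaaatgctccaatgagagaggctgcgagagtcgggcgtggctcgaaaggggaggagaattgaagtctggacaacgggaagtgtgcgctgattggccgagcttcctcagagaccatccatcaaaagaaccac
Sesn1, chr10:41887189-41887438, plus strand, the second of its starts: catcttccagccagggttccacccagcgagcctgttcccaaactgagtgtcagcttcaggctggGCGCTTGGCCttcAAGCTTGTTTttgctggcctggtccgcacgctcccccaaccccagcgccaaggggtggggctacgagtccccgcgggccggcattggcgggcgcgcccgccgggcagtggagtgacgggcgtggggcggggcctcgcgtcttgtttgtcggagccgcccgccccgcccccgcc
Bbc3, chr7:16309333-16309582, plus strand, the first of its starts: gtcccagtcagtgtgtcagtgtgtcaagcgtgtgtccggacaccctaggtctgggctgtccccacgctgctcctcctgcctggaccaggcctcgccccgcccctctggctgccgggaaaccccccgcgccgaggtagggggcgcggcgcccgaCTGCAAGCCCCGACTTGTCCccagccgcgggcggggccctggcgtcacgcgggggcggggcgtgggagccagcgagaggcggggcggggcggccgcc
Aen, chr7:78895808-78896057, plus strand, the second of its starts: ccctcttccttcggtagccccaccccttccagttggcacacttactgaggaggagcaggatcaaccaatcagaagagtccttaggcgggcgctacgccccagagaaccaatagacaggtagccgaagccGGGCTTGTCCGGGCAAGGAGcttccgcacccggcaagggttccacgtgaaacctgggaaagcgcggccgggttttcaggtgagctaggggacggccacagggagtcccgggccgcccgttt

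The Ccng1 pair lay 195 to 176 bases upstream of the start, with no spacer, and differed from the consensus at 1 of 20 bases. Of all 32851 promoters in the table, 0.627% held a pair at least as close. The Sesn1 pair had a spacer of 3 bases and 2 mismatches, a closeness met by 4.09% of promoters. Bbc3 (97 to 78 bases upstream) and Aen (121 to 102 bases upstream) each had 3 mismatches and no spacer, as close as 15.6% of promoters. The best pairs of Mdm2 (4 mismatches), Phlda3 (5) and Plk2 (5) were no closer than those of 40.4% or, at 5 mismatches, 68.7% of promoters. These are matches of letters in a short window. They do not show binding, and sites elsewhere in a gene were not searched.

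The libraries held 1693349 to 4650051 reads counted in genes, and the members were covered by 22 reads (Bbc3 in wild-type replicate 2) to 1723 reads (Trp53inp1 in Cox10-/- replicate 2). Cox10, the targeted gene, stood at 3.98, 3.42, 4.12 and 3.69 log2 CPM (read counts scaled to library depth, on a log2 scale) in the wild-type libraries, and the Cox10-/- libraries stood at 3.51, 3.69, 3.49 and 2.05. Here and below, values of a genotype are given in the order of replicates 1 to 4. The groups overlapped and the difference did not pass the test (limma adjusted p = 0.246), so the transcript does not by itself check the labels. The labels do not name the deleted exon. Within each genotype replicates 1 and 2, and replicates 3 and 4, differed less from each other (chi-square per degree of freedom over reads of 2.65 to 3.06) than the other pairs did (4.77 to 7.72), a measure that also falls with depth. By Pearson correlation across genes, replicates 3 and 4 of Cox10-/- (0.97) were no closer than replicates 2 and 3 (0.971). The reason is not in the labels, and differences are therefore also given within replicates 1 and 2 and within replicates 3 and 4. Markers of muscle stem cells were lower in Cox10-/- cells: 7 of 10 fell, Pax7 itself by 1.29 ± 0.11 on the log2 scale (limma), and their summed level was 2121 to 2760 CPM in wild-type against 1261 to 1505 CPM in Cox10-/-. Of 10 endothelial markers 4 rose (summed 347 to 359 against 395 to 474 CPM), and of 7 mural markers 2 rose and 2 fell (619 to 868 against 1004 to 1228 CPM). Of 7 fibroblast markers 2 rose and 1 fell (3422 to 4601 against 3472 to 7255 CPM), of 8 muscle fibre markers 2 rose (276 to 762 against 294 to 587 CPM), and of 5 Schwann cell markers 1 rose (155 to 338 against 187 to 344 CPM). Only 4 of 10 immune markers were listed, without the defining Ptprc, and none of these was called. Of all genes tested, 7.58% were called higher and 8.51% lower. The marker shifts run with genotype, and their part in the results on p53 targets was not tested. In sorted pools a change in the share of cells of a type and a change in RNA per cell cannot be told apart.

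The comparison asks which of these transcripts differ in cells collected 2 days after the tamoxifen that deletes Cox10, whose enzyme makes a haem precursor for cytochrome c oxidase. The 10 targets did not move as a block. Trp53inp1, Perp and Sesn1 rose, by 2.56-fold, 1.96-fold and 1.51-fold. Plk2 fell, to 0.684 of wild-type, and the other 6, among them Mdm2 and Ccng1, did not pass the test. The test was limma on log2 CPM across 17801 genes with Benjamini-Hochberg adjustment and a threshold of 0.05. Of all genes tested, 7.58% were called higher and 8.51% lower, 16.1% in all (47.1% of the calls were rises, and 58.4% when each library was centred on its median). The median log2 fold change of the 10 genes was 0.17, against -0.06 over all genes tested. All 4 Cox10-/- libraries lay above all 4 wild-type libraries for 4 of the 10 genes, which held for 9.3% of all genes. The reverse held for none of the 10 and for 11.8% of all genes, so that 21.1% of all genes did not overlap in either direction. With each library centred on its median, 4 of the 10 rose (Bbc3 joined them) and none fell at the same threshold. With 10 genes chosen by name, these counts describe the genes and are not a test of the pathway.

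**Figure D1:**
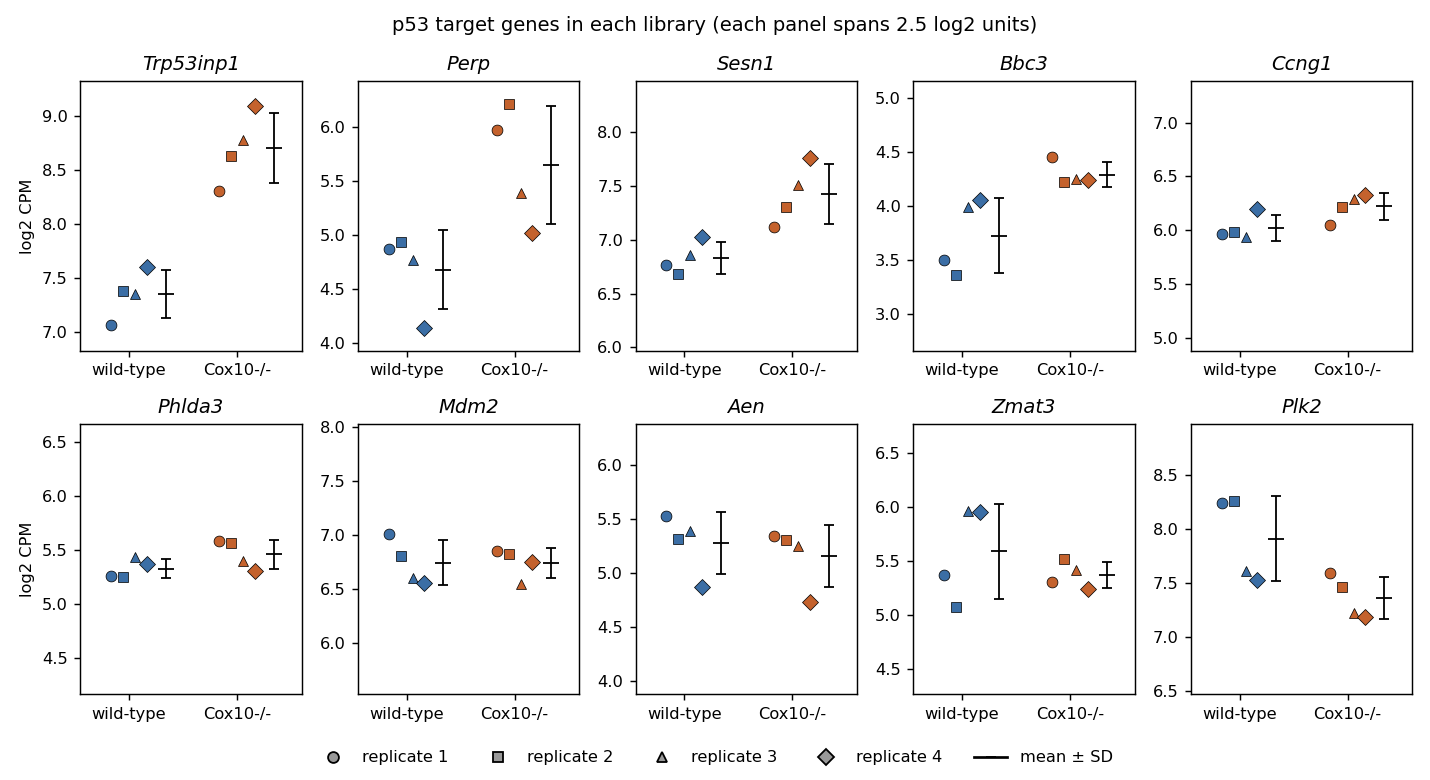
Level of each of the 10 genes in each library, in log2 CPM (vertical axis, every panel spanning 2.5 log2 units), with wild-type in blue and Cox10-/- in orange; symbols give the replicate number and bars the mean and SD of 4 libraries. Trp53inp1, Perp, Sesn1 and Bbc3 show no overlap between genotypes, while Mdm2 has a mean of 6.74 in both.

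Neither gene of the feedback arm passed the test. Mdm2, the ubiquitin ligase that limits p53, measured 7.01, 6.80, 6.60 and 6.55 log2 CPM in wild-type libraries and 6.85, 6.82, 6.54 and 6.75 in Cox10-/- ones. The groups overlapped fully, with a mean of 6.74 in each (SD 0.21 and 0.14, n = 4). The log2 fold change was 0, with a 95% interval of -0.26 to 0.26, or 0.836-fold to 1.20-fold. The interval leaves room for changes of Mdm2 up to these bounds. Ccng1, cyclin G1, which brings a phosphatase to Mdm2, measured 5.97, 5.99, 5.94 and 6.20 in wild-type and 6.05, 6.22, 6.29 and 6.33 in Cox10-/-. Of the Cox10-/- libraries 3 lay above every wild-type library and replicate 1 did not. For Ccng1 the log2 fold change came to 0.20 ± 0.11 (SE over 4 and 4 libraries), with a 95% interval of -0.03 to 0.43 and a limma adjusted p of 0.23. Ccng1 carries the closest match to the p53 consensus printed above, and its difference did not pass the test. Trp53, the gene of p53 itself, measured 5.89 to 6.27 in wild-type and 5.47 to 6.23 in Cox10-/- (log2 fold change -0.16 ± 0.16, limma adjusted p = 0.521), and p53 protein was not measured.

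Trp53inp1, Sesn1 and Phlda3 act on growth signalling and autophagy. Trp53inp1 encodes a stress-induced nuclear protein that promotes p53 phosphorylation and autophagy. Its level was 7.06, 7.38, 7.35 and 7.60 log2 CPM in wild-type libraries and 8.31, 8.63, 8.78 and 9.09 in Cox10-/- ones. The lowest Cox10-/- library lay well above the highest wild-type one. The fold was 2.56 (95% interval 2.03 to 3.23; limma adjusted p = 1.3e-04). The exact two-sided permutation p over the 70 assignments of libraries was 0.0286, the smallest that 4 against 4 can give. Replicates 1 and 2 alone gave a difference of 1.25, and replicates 3 and 4 one of 1.46. Trp53inp1 kept its call in all 8 fits without 1 library (adjusted p of at most 9.6e-04) and, alone among the 10, with replicates 1 and 2 and replicates 3 and 4 averaged into 2 means per genotype (adjusted p = 0.00162).

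Sesn1 encodes sestrin 1, which holds back the growth kinase mTORC1 when leucine is short. The wild-type libraries stood at 6.76, 6.68, 6.86 and 7.02 log2 CPM and the Cox10-/- libraries at 7.12, 7.30, 7.51 and 7.76. The groups did not overlap, but the gap between wild-type replicate 4 and Cox10-/- replicate 1 was small. Sesn1 rose by 0.59 ± 0.13 (log2, SE; limma adjusted p = 0.0103; exact permutation p = 0.0286), by 0.49 in replicates 1 and 2 and 0.70 in replicates 3 and 4. It was called in all 8 fits without 1 library, with adjusted p of at most 0.0375, and was not with 2 means per genotype (adjusted p = 0.0857). Sesn1 was called when the model held the split of replicates 1 and 2 from 3 and 4 (limma adjusted p = 7.2e-04). Without the trend of the variance prior it was close to the threshold (limma adjusted p = 0.0489). Phlda3, a pleckstrin-domain protein that competes with Akt for membrane lipids, did not pass. Its 4 wild-type libraries read 5.26, 5.25, 5.43 and 5.37, and its 4 Cox10-/- libraries 5.58, 5.56, 5.40 and 5.30. The log2 fold change of 0.13 ± 0.12 (limma adjusted p = 0.483) was made of 0.32 in replicates 1 and 2 and -0.05 in replicates 3 and 4.

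**Figure D2:**
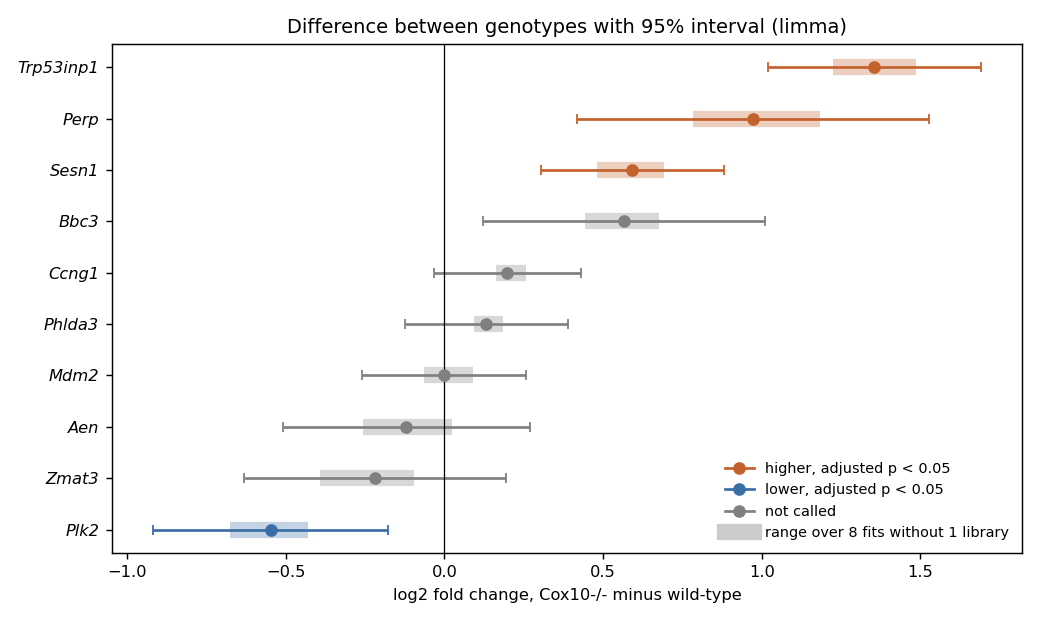
Log2 fold change of each gene, Cox10-/- minus wild-type (horizontal axis), with its 95% interval from limma as a thin bar and the range over the 8 fits without 1 library as a pale band. Intervals of Trp53inp1, Perp, Sesn1, Bbc3 and Plk2 exclude 0, but that of Bbc3 goes with an adjusted p of 0.08.

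Perp, Bbc3 and Aen are tied to cell death. Perp, a membrane protein of cell junctions that can promote apoptosis, measured 4.87, 4.94, 4.77 and 4.14 log2 CPM in wild-type libraries and 5.98, 6.22, 5.39 and 5.02 in Cox10-/- ones. Every Cox10-/- library lay above every wild-type library, and replicates 1 and 2 were the highest among the Cox10-/- libraries. Perp rose by 0.97 ± 0.26 (log2, SE; limma adjusted p = 0.0225; exact permutation p = 0.0286), by 1.20 in replicates 1 and 2 and 0.75 in replicates 3 and 4. Leaving out wild-type replicate 4 ended the call (0.79, adjusted p = 0.0563), as did leaving out Cox10-/- replicate 1 (0.86, 0.0603) or 2 (0.78, 0.0632). It was not called with 2 means per genotype (adjusted p = 0.0808) nor without the trend of the variance prior (adjusted p = 0.0679), and was when the model held the split of replicates 1 and 2 from 3 and 4 (0.00145). Its spread in Cox10-/- (SD 0.55) was the largest of the 10 genes there.

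Bbc3 encodes PUMA, a BH3-only protein that neutralises the survival members of the BCL2 family. It was covered by few reads, 22 to 74 in wild-type and 32 to 95 in Cox10-/-. Its values were 3.50, 3.36, 3.99 and 4.06 log2 CPM in wild-type libraries and 4.46, 4.22, 4.25 and 4.24 in Cox10-/- ones. The groups did not overlap, yet wild-type replicates 3 and 4 came close to the Cox10-/- level. The log2 fold change was 0.565 ± 0.20 (limma adjusted p = 0.08; exact permutation p = 0.0286), with 0.91 in replicates 1 and 2 and 0.22 in replicates 3 and 4. Bbc3 passed when each library was centred on its median (0.65, adjusted p = 0.0221) and in none of the 8 fits without 1 library. Aen, a nuclease that helps break down DNA in apoptosis, measured 4.87 to 5.53 in wild-type and 4.73 to 5.34 in Cox10-/-. Replicate 4 was the lowest library of Aen in both genotypes, and the difference of -0.12 ± 0.18 did not pass (limma adjusted p = 0.694).

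The remaining genes, Zmat3 and Plk2, lay lower on average in Cox10-/- cells, and Plk2 passed the test. Zmat3, a zinc-finger protein that binds RNA and steers transcript stability and splicing, measured 5.37, 5.07, 5.96 and 5.95 log2 CPM in wild-type libraries and 5.30, 5.52, 5.41 and 5.24 in Cox10-/- ones. Wild-type replicate 2 lay below the Cox10-/- libraries, replicate 1 among them and replicates 3 and 4 above them. Replicates 1 and 2 gave a difference of 0.19 and replicates 3 and 4 one of -0.63. The log2 fold change of -0.22 ± 0.19 did not pass (limma adjusted p = 0.47). Plk2, a polo-like kinase of early G1 and centriole duplication, measured 8.24, 8.26, 7.61 and 7.53 in wild-type and 7.59, 7.46, 7.22 and 7.18 in Cox10-/-. The groups overlapped by Cox10-/- replicate 1, which lay between wild-type replicates 3 and 4. Within each genotype replicates 1 and 2 were the higher ones. Plk2 fell by 0.55 ± 0.17 (log2, SE; limma adjusted p = 0.0464; exact permutation p = 0.0571), with -0.73 in replicates 1 and 2 and -0.37 in replicates 3 and 4. This fall was close to the threshold. It was not called without wild-type replicates 1 or 2 or without Cox10-/- replicates 2, 3 or 4 (adjusted p of 0.0692 to 0.136), after median centring (-0.47, adjusted p = 0.149) or on reads recovered from the table (limma-voom adjusted p = 0.0692). It was called when the model held the split of replicates 1 and 2 from 3 and 4 (limma adjusted p = 8.3e-04).

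**Figure D3:**
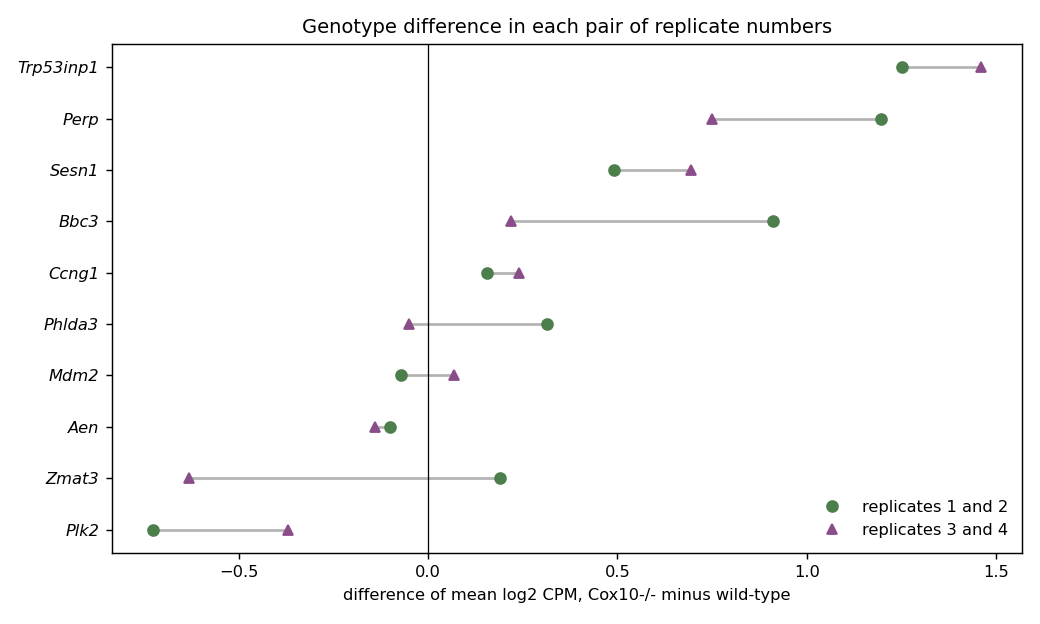
Difference of mean log2 CPM, Cox10-/- minus wild-type (horizontal axis), taken within replicates 1 and 2 (green circles) and within replicates 3 and 4 (purple triangles). Trp53inp1, Perp, Sesn1, Bbc3 and Ccng1 lie above 0 in both, Plk2 and Aen below 0 in both, and Phlda3, Mdm2 and Zmat3 on opposite sides.

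The direction was the same within both pairs of replicate numbers for 7 of the 10 genes, of which 5 were higher and 2 lower. The other 3 were Mdm2, Phlda3 and Zmat3. The share of all genes with the same direction in both pairs was not computed, so this count only describes the 10 genes. The spread among the 4 wild-type libraries ran from an SD of 0.0873 for Phlda3 to 0.44 for Zmat3, and among the 4 Cox10-/- libraries from 0.11 for Bbc3 to 0.55 for Perp. In wild-type, replicates 1 and 2 did not overlap replicates 3 and 4 for Mdm2, Phlda3, Sesn1, Zmat3, Perp, Plk2 and Bbc3. In Cox10-/- the same held for Mdm2, Ccng1, Phlda3, Trp53inp1, Sesn1, Aen, Perp and Plk2. The share of all genes split in this way was not computed either, so these lists only describe the 10 genes. The spread of Perp in wild-type (SD 0.37) came mainly from replicate 4. GENCODE M21 lists no other gene whose exons share bases with those of any of the 10, so reads of an overlapping gene in that annotation cannot have been counted with them. That annotation is on GRCm38, while the submitters' processing notes name mm9.

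The profiles closest to that of Trp53inp1, the member that rose the most, belonged to no other gene of the lists. Measured by Euclidean distance over the 8 libraries after centring each gene on its mean, the nearest were Dpyd (0.401), Klf15 (0.451), Zmiz1 (0.488), Gab2 (0.492) and Cntfr (0.498), in log2 units. Dpyd encodes the first enzyme of pyrimidine breakdown and rose by 1.275 (log2). Klf15, a Krüppel-like transcription factor, rose by 1.18, and Cntfr, the receptor subunit for ciliary neurotrophic factor, by 1.32. Zmiz1, a transcriptional coactivator, rose by 1.49 and the signalling adaptor Gab2 by 1.19. These 5 were chosen for their likeness to a called gene, so their own difference between genotypes is given with no test.

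Among p53 and its regulators, calls were made in both directions. Of 24 genes listed as p53 and its regulators, 22 were tested, and 2 rose, 3 fell and 17 did not pass, a share called of 22.7% against 16.1% of all genes. The median log2 fold change was 0.02. Trp53bp1, which marks DNA double-strand breaks and binds p53, measured 7.53, 7.19, 7.45 and 7.31 log2 CPM in wild-type and 6.77, 6.68, 6.49 and 6.54 in Cox10-/-. The groups did not overlap, and Trp53bp1 fell by 0.75 ± 0.10 (log2, SE; limma adjusted p = 5.1e-04). Prkdc, the catalytic subunit of DNA-dependent protein kinase, fell by 0.92 ± 0.16 (adjusted p = 0.00208). Both kept their call in all 8 fits without 1 library and with 2 means per genotype (adjusted p = 0.019 for Trp53bp1 and 0.0269 for Prkdc). Atr, the kinase of replication stress, fell by 0.38 ± 0.10 (adjusted p = 0.0258), and the acetyltransferase Ep300 rose by 0.25 ± 0.07 (adjusted p = 0.0337). Atm, the kinase of double-strand breaks, named after its values were seen, rose by 0.31 ± 0.09 (adjusted p = 0.036). All Cox10-/- libraries of these 3 genes lay beyond all wild-type ones, but their calls did not hold in every fit without 1 library. Atr lost its call without wild-type replicates 1 or 3 or Cox10-/- replicates 3 or 4 (adjusted p up to 0.0888; log2 fold change -0.43 to -0.33 over the 8 fits). Ep300 held it only without wild-type replicate 2 or Cox10-/- replicate 1 (otherwise up to 0.0969; 0.235 to 0.275), and Atm only without wild-type replicate 4 or Cox10-/- replicate 4 (otherwise up to 0.112; 0.25 to 0.35). Those of Atr and Ep300 were also lost after median centring (0.095 and 0.17), and all 3 with 2 means per genotype (0.245 for Atr, 0.381 for Ep300 and 0.298 for Atm). The Mdm2 partner Mdm4 (-0.175 ± 0.11), the deubiquitinase Usp7 (0.01 ± 0.08) and Trp63 (-0.26 ± 0.26), all named after their values were seen, did not pass.

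A wider list of 38 further p53 targets, all tested, had a share called near that of all genes (18.4% against 16.1%): 2 rose, 5 fell and 31 did not pass, with a median log2 fold change of 0.02. Cdkn1a, the cell cycle inhibitor p21, measured 6.68, 6.58, 6.37 and 6.33 log2 CPM in wild-type libraries and 7.13, 7.27, 7.21 and 7.24 in Cox10-/- ones. It rose 1.65-fold with no overlap (limma adjusted p = 5.2e-04). Ckap2, a spindle protein whose transcript also peaks in mitosis, rose by 1.09 ± 0.22 (log2, SE; adjusted p = 0.00555). Ephx1, an epoxide hydrolase, fell by 0.50 ± 0.11 (adjusted p = 0.0101), and Steap3, a ferrireductase of iron uptake, by 0.85 ± 0.20 (adjusted p = 0.0141). Pmaip1, which encodes the BH3-only protein NOXA, fell by 1.21 ± 0.33 (adjusted p = 0.0269), Pml by 0.58 ± 0.17 (adjusted p = 0.0354) and the receptor gene Eda2r by 0.51 ± 0.16 (adjusted p = 0.0498), all named after their values were seen. Pmaip1 lost its call without wild-type replicates 1 or 2 or Cox10-/- replicates 3 or 4 (adjusted p up to 0.0862; log2 fold change -1.43 to -0.96 over the 8 fits). Pml lost it without wild-type replicates 1, 3 or 4 or Cox10-/- replicates 2 or 4 (up to 0.0981; -0.70 to -0.45), and Eda2r kept it only without Cox10-/- replicate 1 (otherwise up to 0.133; -0.63 to -0.38). With 2 means per genotype only Cdkn1a and Ckap2 of this list were called. After median centring 3 rose and 3 fell, and the calls of Ephx1 (adjusted p = 0.0514) and Eda2r (0.0732) were lost.

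**Figure D4:**
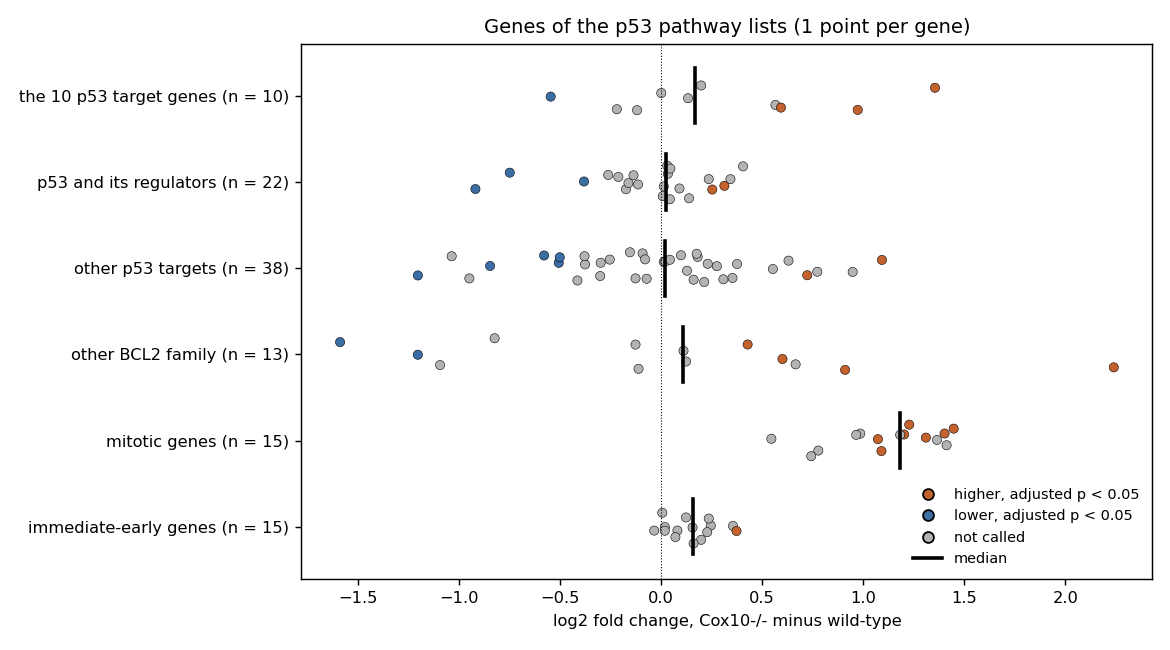
Log2 fold change, Cox10-/- minus wild-type (horizontal axis), of every tested gene of 6 lists, 1 point per gene with vertical jitter; orange and blue mark genes called higher and lower, grey those not called, and bars the median. The 10 target genes, the regulators and the 38 further targets straddle 0. All 15 mitotic genes lie above it, as do 14 of the 15 immediate-early genes (median 0.155).

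Bbc3 can be read beside the rest of its family. Of 13 other BCL2 family genes tested, 4 rose and 2 fell (46.2% called, against 16.1% of all genes), Pmaip1 being one of the latter. The BH3-only genes Hrk (2.24 ± 0.31, adjusted p = 4.9e-04) and Bcl2l11 (0.60 ± 0.11, adjusted p = 0.00404) and the survival gene Bcl2l1 (0.91 ± 0.12, adjusted p = 3.9e-04) rose, and Bok fell by 1.59 ± 0.24 (adjusted p = 0.00104), all by limma. Hrk and Bok were thinly covered, by as few as 7 and 8 reads, and Hrk stood at 0.98 log2 CPM in wild-type replicate 1. With 2 means per genotype the calls of Bcl2l11 (adjusted p = 0.0628), Bcl2 (0.147) and Pmaip1 (0.1) were lost. Mitotic genes that p53 lowers through p21 and the DREAM complex were not lower in Cox10-/- cells. All 15 lay above 0, with a median of 1.18 against -0.055 over all genes. Of the 15, 7 rose (46.7%, against 7.58% of all genes), among them Cdc20 by 1.20 ± 0.33 and Aurkb by 1.45 ± 0.40. The genotypes overlapped for every one of the 15, while 21.1% of all genes did not overlap. All 7 calls were lost when wild-type replicate 2 or 4, or Cox10-/- replicate 1, 3 or 4, was left out (limma adjusted p up to 0.139, for Bub1). Immediate-early genes, which rise when tissue is dissociated and share inducers with Plk2, had 1 rise among 15 (6.67%, against 7.58% of all genes). It was Klf4, by 0.37 ± 0.08 (limma adjusted p = 0.00762), while 14 of the 15 lay above 0 (median 0.155). Within replicates 1 and 2 the median of the immediate-early genes was -0.17, and within replicates 3 and 4 it was 0.47. The difference of Plk2 was negative in both, and the part of dissociation in the result on Plk2 was not tested.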

How the data were processed

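Per the labels' protocols, total RNA of 8 samples went into a strand-keeping kit for small inputs. Trimming with Trim Galore, alignment with HISAT2, counting with featureCounts, DESeq2 and the mm9 build are named in the submitters' processing notes, without versions or the strand setting. The authors deposited log2 CPM rounded to 2 decimals, with every CPM of 1 or less at 0. A further 1054 rows hold no gene. Reads per library were recovered from the steps between low values, which fell on whole reads (within 0.1 read, up to 20 reads).

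Genotypes were compared with limma 3.58.1 (R 4.3.3) on the values as deposited, with a trend in the variance prior and no pseudocount, over 17801 genes above 0 in at least 4 libraries (46 removed). Intervals are 95% from the moderated fit, ± is SE unless named SD, and exact tests enumerate 70 assignments. The test was also run on simulated data with 200 changed genes, whereas 2863 genes were called in the real data. No outcome of that run is given here, so it does not vouch for the test on these libraries. The members and lists were chosen with earlier results of these data known. Named were the 10 members, Cox10, Trp53, up to 4 called genes of each pathway list with the smallest p, and the 5 genes nearest to Trp53inp1 averaging at least 2 log2 CPM (predicted gene models left out). Not every gene so selected is described. Cop1 was matched by its older symbol. Alternatives were other filters, 1 CPM added, median centring, leaving out libraries, a replicate block, replicate means, a replicate-pair term, no trend and, chosen after seeing the data, limma-voom on recovered reads.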

Additional observations from a re-analysis of the deposited data

Results flagged for a closer look

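In 3 of 36 groups of 4 libraries examined, 1 library stood apart from the other 3 by more than a set share of the group's range; chance does this in about 1 of 20 groups. Aen stood at 4.73 log2 CPM in Cox10-/- replicate 4, against 5.25 to 5.34 in the others, and Cox10 at 2.05 in the same library, against 3.49 to 3.69. That library was the shallowest, with 1693349 reads. Bbc3 stood at 4.46 in Cox10-/- replicate 1, against 4.22 to 4.25.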

How the results depend on the processing

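Over 18 other settings Trp53inp1 kept its call in all, Sesn1 in 17, Perp in 13 and Plk2 in 8. Mdm2, Ccng1, Phlda3, Zmat3 and Aen passed in none and Bbc3 in 1, median centring. The number of the 10 genes called ran from 2 (without Cox10-/- replicate 2) to 4 without 1 library, and was 1 with 2 means per genotype and 2 without the variance trend. Over all genes 1840 (without Cox10-/- replicate 3) to 2907 were called without 1 library (1902 without wild-type replicate 1), and 858 with 2 means per genotype. Regulators called numbered 2 to 5 without 1 library, lowest without wild-type replicates 1 or 3 or Cox10-/- replicate 3 and at 3 without Cox10-/- replicates 2 or 4, with 2 under 2 means and 2 without the trend. Further targets called numbered 4 (without wild-type replicate 1 or Cox10-/- replicate 4) to 9, with 2 under 2 means and 4 without the trend. Aen changed sign without Cox10-/- replicate 4 (0.0225) and without the 2 shallowest libraries (0.0367), from -0.12, with a range of -0.256 to 0.0225 without 1 library. The cause of these changes was not tested. Fits that leave out libraries or average them also hold fewer samples. With the replicate number as a block 3201 genes and 4 of the 10 were called, the same 4 genes. The numbers were not taken to pair the samples, since same-numbered deviations correlated at 0.0453 to 0.137, not all above 0.1. Wild-type replicate 1 correlated best with Cox10-/- replicate 2 (0.165), which is within the set of replicates 1 and 2. Between genotypes, correlations within the sets (1 and 2, or 3 and 4) ran from -0.0238 to 0.165. Those across the sets ran from -0.215 to 0.0252, so the split was partly shared by the genotypes. The main fit held no term for it. A term for replicates 1 and 2 against 3 and 4 gave 3838 genes, 4 of the 10, 7 regulators and 9 further targets. edgeR and DESeq2 on recovered reads were planned and not run, and limma-voom was run on those reads instead. Among the 10 genes depth limits Bbc3 the most, at 22 reads in its thinnest library.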

Other observations

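Of the further p53 targets, 5 genes of DNA repair and nucleotide supply, picked after their values were seen, did not pass the test. Xpc, the damage sensor of nucleotide excision repair, had all 4 Cox10-/- libraries above all 4 wild-type ones, with a log2 fold change of 0.375 ± 0.13 that did not pass (limma adjusted p = 0.0741). Ddb2, its partner in ultraviolet damage, stood at 0.35 ± 0.24, the repair nuclease Ercc5 at 0.13 ± 0.08 with no overlap between genotypes, and the translesion polymerase Polk at -0.30 ± 0.22. Rrm2b, the ribonucleotide reductase subunit that p53 induces, stood at -0.07 ± 0.14. The genes that follow were also picked after their values were seen. Of the targets that act in metabolism, Tigar, which lowers glycolytic flux, stood at -0.95 ± 0.34 (adjusted p = 0.0781) and Gls2, a mitochondrial glutaminase, at -1.04 ± 0.34 (adjusted p = 0.0571). Gls2 was lower in all 4 Cox10-/- libraries than in any wild-type one. Among the 38 further targets, the Cox10-/- libraries all lay higher for 4 genes and all lower for 4. Of all genes, 9.3% and 11.8% did so. Tigar and Gls2 were each covered by as few as 4 reads. Gdf15, a secreted stress factor that both p53 and the mitochondrial stress response can induce, stood at 0.21 ± 0.31 (adjusted p = 0.69). Sesn2, the paralogue of Sesn1 with the same control of mTORC1, stood at 0.31 ± 0.18 (adjusted p = 0.268); the difference between the sestrin genes was not tested.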
